A study of Arabidopsis thaliana with 28 samples.

Results

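The miRNAs described here are young Arabidopsis miRNAs whose family numbers lie between 770 and 870. Every locus and both arms of a hairpin were counted, and 18 family numbers in that range were left out by the rule that defined the set. The rule found 70 miRNAs from 42 families among the 421 miRNAs of the deposited table. The rule goes by family number, but some of the numbers left out belong to families that had been set apart as lowered by ABA.

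The authors profiled miRNAs by sequencing in wild-type Arabidopsis thaliana seedlings of the ecotype Col-0. Seedlings were given the hormone abscisic acid (ABA) or a mock treatment that the column names call EtOH, the solvent ethanol. Both series were collected at 0.5, 1, 3, 6, 9, 12 and 24 h, with 2 libraries in each of the 14 groups, so 14 ABA and 14 mock libraries. Neither the ABA dose nor the age of the seedlings is stated in the labels, which also do not say whether both libraries of a group were separate cultures. The p-values therefore measure the spread between these libraries, which may be technical. The table holds miRNAs only, so the seedling label could not be checked against tissue markers. In whole seedlings, fewer cells of a type and less of an RNA per cell cannot be told apart.

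The authors deposited 1 mean normalized count per group. Because each mean is the average of 2 whole read counts divided by 2 library size factors, the library values could be recovered for 90.4% of the 5894 means and in all 28 libraries for 363 miRNAs, 68 of the 70 members among them. The recovered reads summed to between 218054 and 906087 per library over the miRNAs that could be split, and in every group the 2 libraries differed by more than counting noise. Differences between ABA and mock are given on the log2(value + 1) scale with their standard error (SE), tested with limma over the 28 libraries, and a miRNA is called where its Benjamini-Hochberg adjusted p over all 358 tested miRNAs was under 0.05. Levels are the authors' normalized counts with no length correction, since mature miRNAs are of nearly equal length.

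MicroRNAs are short RNAs cut from a folded precursor, the hairpin, by a Dicer-like enzyme, usually DCL1 in plants. The 2 strands of the cut duplex are named 5p and 3p after their side of the hairpin, and one of them is usually loaded into an Argonaute protein, where it guides cleavage or repression of matching messenger RNAs. Young miRNAs are found in one species or a few close relatives. Many are weakly expressed, several still resemble the gene from which their hairpin arose, and some long, nearly perfect hairpins are cut by DCL4 in place of DCL1. ABA is the hormone of seed dormancy, stomatal closure and drought response.

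The mature sequences below, from RefSeq's annotation of the assembly TAIR10.1, belong to the members on which the results turn. They are written 5′ to 3′ with the seed, bases 2 to 8, in capitals. The first set holds both arms of the hairpins whose arms moved together or apart, because the strand matters for those results.
miR866-5p: uCAAGGAAcggauuuuguuaa
miR866-3p: aCAAAAUCcgucuuugaaga
miR861-5p: cCUUGGAGaaauaugcgucaa
miR861-3p: gAUGGAUAugucuucaaggac
miR844-5p: uGGUAAGAuugcuuauaagcu
miR844-3p: uUAUAAGCcaucuuacuaguu
miR837-5p: aUCAGUUUcuuguucguuuca
miR837-3p: aAACGAACaaaaaacugaugg
miR829-5p: aCUUUGAAgcuuugauuugaa
The second set shows members that share a sequence, because a read that lies within a shared stretch matches more than 1 of these members. The 5 miR854 loci carry the same mature sequence, as do both miR781 loci. The 3p arms of miR841a and miR841b share a stretch of 19 bases but are offset, so that their seeds differ, and their 5p arms share the seed.
miR854a to miR854e: gAUGAGGAuagggaggaggag
miR781a and miR781b: uUAGAGUUuucuggauacuua
miR841a-3p: aUUUCUAGugggucguauuca
miR841b-3p: cAAUUUCUagugggucguauu
miR841a-5p: uACGAGCCacuugaaacugaa
miR841b-5p: uACGAGCCacuggaaacugaa
The third set holds the member with the highest level, both arms of its hairpin, the 2 miR845 paralogs, whose levels differed, and 3 other members that fell.
miR822-5p: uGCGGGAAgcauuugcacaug
miR822-3p: uGUGCAAAugcuuucuacagg
miR845a: cGGCUCUGauaccaauugaug
miR845b: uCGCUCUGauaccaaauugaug
miR859: uCUCUCUGuugugaagucaaa
miR839-5p: uACCAACCuuucaucguuccc
miR850: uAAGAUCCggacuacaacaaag
RefSeq names matched 66 of the 70 members, with 61 distinct sequences. Of these, 42 (68.9%) began with U, the first base that Arabidopsis AGO1 prefers. The share was 55.8% of the 335 distinct sequences in the whole table and 85.2% of the 27 from the left-out family numbers. The usual length of 21 bases was found in 44, and 1 member, miR836, had 24 bases. For miR779, miR780, miR829-3p and miR869 the sequence is not shown.

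Over the 7 times, ABA changed 31 of the 66 tested members: 12 rose and 19 fell. The background in the same fit was 22.9% raised and 24.6% lowered of all 358 tested miRNAs, and the members' shares were 18.2% and 28.8%, both near that background. The median log2 difference was -0.19 over the members and -0.04 over all tested miRNAs, with 40 of the 66 members below 0. Conserved families had 33 raised and 28 lowered of 96 tested, with a median of 0.05, out of 145 listed in the same table. The 58 miRNAs of the table that were not recovered in all libraries, each with a mean of at least 6511, were not tested in this fit. Counts and medians of these lists therefore leave out miRNAs of the highest levels. The 23 tested miRNAs of the family numbers that the rule left out had 3 raised and 11 lowered, with a median of -0.21. A list of families numbered well above the range had 30 raised and 27 lowered of 146 tested, with a median of -0.01. Some of the families that the rule left out had been set apart as lowered by ABA, with earlier results of these data known. Their counts and median were thus partly fixed by that choice, and cannot show whether a median near -0.2 was particular to the members. Differences between these lists were not tested. The members that rose most were the 3p arm of miR861 and both arms of miR866, and those that fell most and kept the call with any library left out were miR844-3p, miR859 and miR837-5p.

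**Figure D1:**
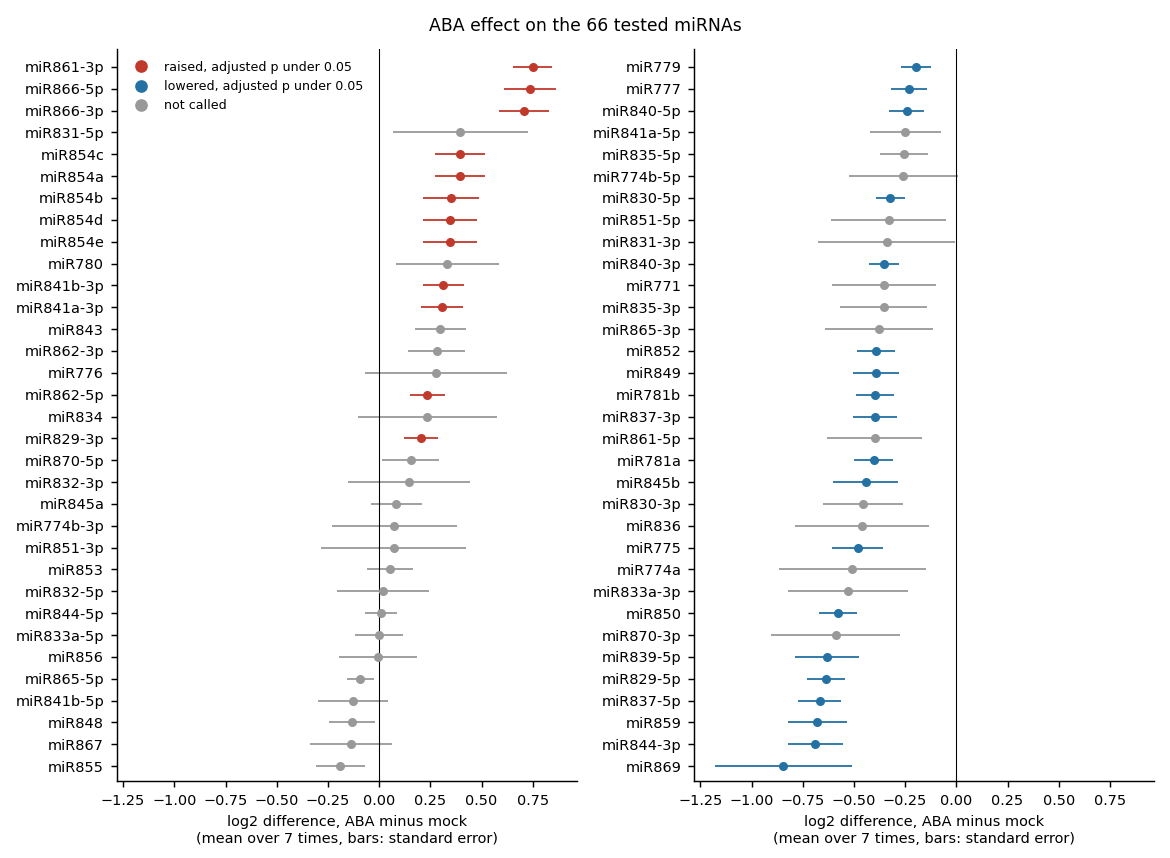
ABA effect on the 66 tested miRNAs, ordered from the highest to the lowest. The x axis is the log2 difference, ABA minus mock, as the mean over the 7 times, bars are standard errors, and colours mark members raised, lowered or not called at an adjusted p under 0.05; miR861-3p stands at the top with 0.75 and miR869 at the bottom with -0.84.

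The count of 12 raised members includes 5 loci of miR854 and both 3p arms of miR841. Counting 1 miRNA per distinct sequence left 7 raised and 18 lowered of 61 members, or 11.5% and 29.5%, beside 18.8% raised and 23.4% lowered of the 303 miRNAs of that fit. The raised count was 7 when the deeper ABA 0.5 h, the shallower ABA 1 h, the deeper ABA 12 h or the shallower mock 12 h library was left out, and lay between 8 and 13 otherwise; the lowered count stayed between 15 and 21 over the 28 fits that each leave out 1 library. Of the 31 called members, 21 kept their call in all 28 of these fits.

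Levels ran from 18728 normalized counts for miR822-5p to 0.0488 for miR782, as means of the 14 group means. They lay over 100 normalized counts for 30 members, from 10 to 100 for 19, and under 10 for 21. Of the tested members, 7 rose and 15 fell among the 28 above 100, 5 rose and 3 fell among the 19 in the middle class, and 1 fell among the 19 below 10. Over all tested miRNAs of the same classes, 32.5% rose and 32.5% fell of the 191 above 100, 17% and 20% of the 100 in the middle class, and 4.48% and 8.96% of the 67 below 10. The members' shares were 25% and 53.6% above 100, 26.3% and 15.8% in the middle class, and 0% and 5.26% below 10. Above 100 the members' lowered share was thus higher than that of all tested miRNAs, a difference that was not tested. The members together made up 0.621 to 0.718% of the summed normalized counts in ABA groups and 0.662 to 0.792% in mock groups. A single hairpin, miR822, gave 61.1 to 68.9% of the members' sum in ABA groups and 56.2 to 65.1% in mock groups.

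**Figure D2:**
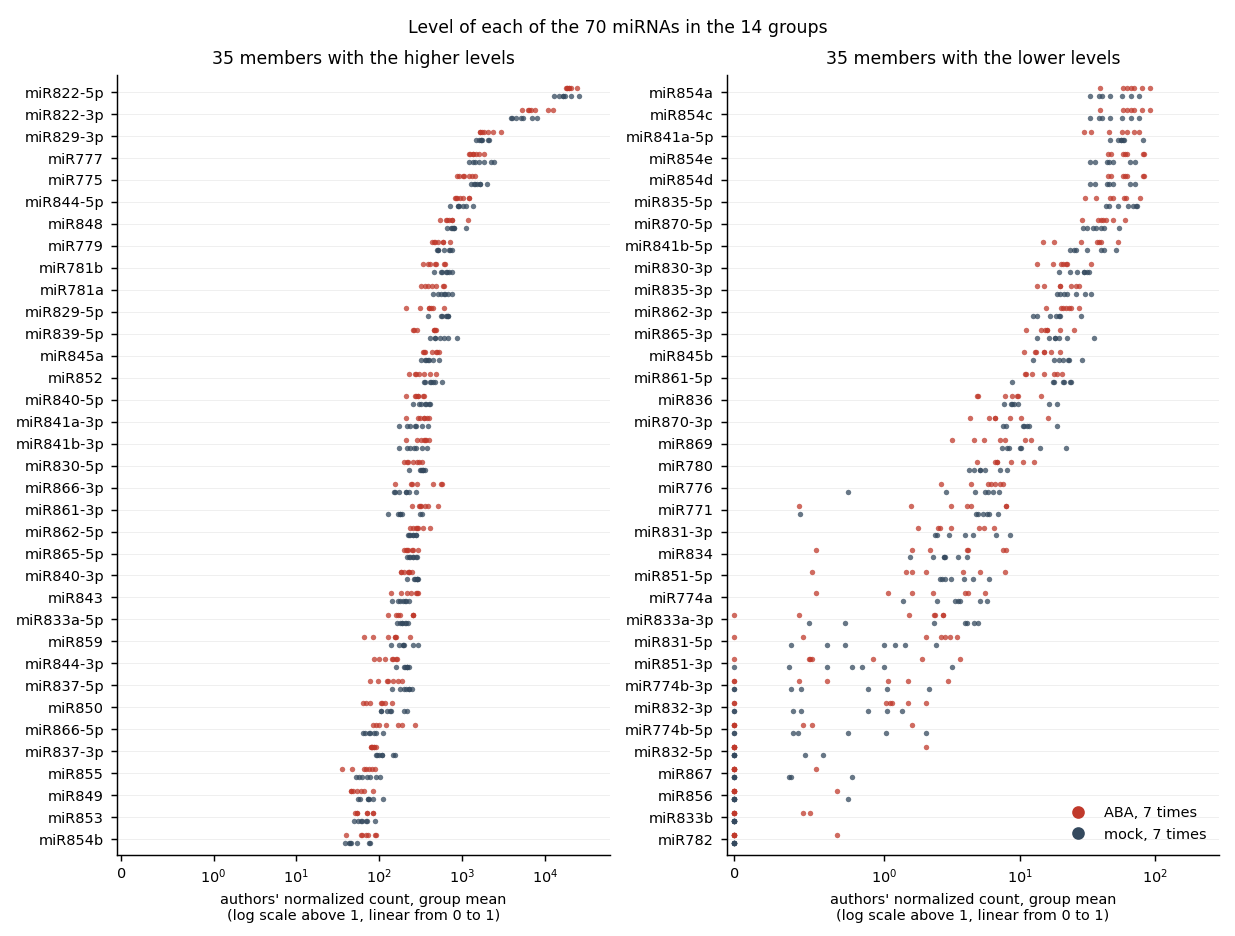
Level of each of the 70 miRNAs in the 14 groups. Each point is the authors' mean normalized count of 1 group, with the 7 ABA groups drawn above the 7 mock groups in each line, on an axis that is linear from 0 to 1 and logarithmic above; miR822-5p lies near 18728 and the lowest members are listed at 0 in most groups.

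miR822, miR839 and miR869 are hairpins that DCL4 is known to cut. miR822-5p, reported to target genes of DC1-domain proteins, was the highest member of the set. Its authors' group means ran from 18054 over a median of 19404 to 24204 in ABA seedlings, and from 12884 over a median of 16339 to 25687 in mock seedlings. The ABA mean was the higher one at 5 of 7 times, and the ranges overlapped. miR822-3p had ABA means from 5263 to 12534 with a median of 6827, and mock means from 3852 to 8002 with a median of 5039, with ABA higher at 6 of 7 times. Both arms were too high for their means to be split in every group, and were tested only on the 7 log2 ratios of the deposited means, 1 per time. In that limma fit the difference was 0.18 (SE 0.11, adjusted p = 0.247) for the 5p arm and 0.54 (SE 0.19, adjusted p = 0.0641) for the 3p arm, so neither was called, beside 11.3% raised and 14% lowered of the 407 miRNAs in that fit.

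miR839-5p fell. Its library values ran from 171 over a median of 330 to 667 in ABA seedlings, and from 254 over a median of 528 to 958 in mock seedlings. The ABA mean was lower at 7 of 7 times, and both ABA libraries lay below both mock libraries at 3 of them. The log2 difference was -0.63 (SE 0.16, limma adjusted p = 0.0026), a 1.55-fold lower level. miR869 was much weaker, with ABA libraries from 0 over a median of 6.86 to 15.6 and mock libraries from 6.16 over a median of 9.38 to 22.8. Its log2 difference of -0.84 (SE 0.33, limma adjusted p = 0.0432) lost the call in 20 of the 28 fits that leave out 1 library, between -1.13 and -0.55, so that the call is marginal. It was -1.20 and not called with a pseudocount of 0.1, -0.48 and called with 5, and -0.60 and not called on the deposited means. At 0.5 h, 1 and 5 reads were recovered in ABA and 29 and 18 in mock libraries, while at 24 h the ABA libraries had 18 and 0 reads and the mock libraries 10 and 7. The authors' deposited table gives miR869 an adjusted p = 0.0139 at 0.5 h, where the fit of all 28 libraries did not call it.

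miR845, miR854 and miR855 are linked to transposable elements. miR845a and miR845b match the primer-binding sites of retrotransposons and are known from pollen, and miR854 lies in remnants of Athila retrotransposons and is reported to repress UBP1b, an RNA-binding protein. The 5 miR854 loci, all on chromosome 5 within pseudogenes, were among the raised members. Since they share 1 mature sequence, their values are not independent: miR854a and miR854c had identical values in every group, as did miR854d and miR854e, and group means of any pair of the 5 stayed within 1.29-fold.

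miR854a and miR854c had 30.1, 67.1 and 94.6 as lowest, median and highest normalized count in ABA libraries, against 31.8, 46.3 and 102 in mock libraries. The log2 difference was 0.39 (SE 0.12, limma adjusted p = 0.0115), with the ABA mean higher at 5 of 7 times. miR854b had 27.3, 71.6 and 103 in ABA libraries and 34.9, 48.8 and 97.8 in mock libraries, a difference of 0.35 (SE 0.14, adjusted p = 0.0384). miR854d and miR854e had 36.9, 56.6 and 103 in ABA libraries and 29.6, 44.6 and 89.3 in mock libraries, also 0.35 (SE 0.13, adjusted p = 0.0342). The last 3 loci lost the call in 13 or 14 of the 28 fits with 1 library left out, with values no lower than 0.29. miR854a was called singly only at 9 h, with 91.1 and 92.9 in ABA libraries and 34.8 and 42.3 in mock libraries. The log2 difference there was 1.24 (SE 0.32, limma adjusted p = 0.0133), and at 1 and 6 h the ABA mean was the lower one. A limma test of any change of its effect over the 7 times was not called (adjusted p = 0.159). The effect at 6 to 24 h against that at 0.5 to 3 h was not called either (limma adjusted p = 0.569).

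The miR845 paralogs lie 3371 bases apart on the minus strand of chromosome 4, miR845a at chr4:12217457-12217477 and miR845b at chr4:12214086-12214107, with no other gene annotated over either mature sequence. miR845a averaged 411 normalized counts over the 14 groups and had a log2 difference of 0.08 (SE 0.12, limma adjusted p = 0.604). miR845b averaged 17.9 and fell, with 8.93, 14.7 and 25.1 as lowest, median and highest value in ABA libraries and 11.1, 18.7 and 40.0 in mock libraries. Its difference was -0.44 (SE 0.16, adjusted p = 0.0269), but the call was lost in 7 of 28 fits with 1 library left out, with values from -0.52 to -0.36. The difference between the paralogs' effects was not tested. miR855 averaged 69.5 and was not called (-0.19, SE 0.12, adjusted p = 0.217).

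miR859 and miR774 are reported to target F-box genes, whose proteins select substrates for ubiquitination. MIR859, MIR774a and MIR774b lie on the plus strand of chromosome 1, and their mature sequences start within 489 bases of each other, with miR859 at chr1:22149735-22149755 and no other gene annotated over them. miR859 fell late in the series. Its normalized counts ran from 39.3 over a median of 126 to 248 in ABA libraries, and from 125 over a median of 198 to 332 in mock libraries. At 24 h the ABA libraries had 90.1 and 39.3, against 253 and 332 in mock libraries, and at 12 h they had 126 and 131, against 272 and 243. At 0.5 h the order was the opposite, with 215 and 248 in ABA libraries and 184 and 164 in mock libraries. The log2 difference over the 7 times was -0.68 (SE 0.14, limma adjusted p = 0.00061), and at 24 h it was -2.26 (SE 0.38, adjusted p = 0.000174), a 4.80-fold lower level. This 24 h value stayed called in all 28 fits with 1 library left out, between -2.85 and -1.68.

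The neighbours of miR859 were rare. miR774a averaged 3.16 normalized counts, miR774b-3p 0.820 and miR774b-5p 0.515, and none was called. Their differences were -0.51 (SE 0.36) for miR774a, 0.07 (SE 0.31) for miR774b-3p and -0.26 (SE 0.26) for miR774b-5p.

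Reported targets of other kinds are a galactosyltransferase for miR775, the organelle protein WHIRLY3 and a pentatricopeptide repeat gene for miR840, histone H2A for miR841, the gene CDS3 for miR844, a cation/H+ exchanger and a zinc transporter for miR856, and an MCM factor for miR781. Of these 6 families, miR775, miR781, miR840 and the 3p arm of miR844 fell, the 3p arms of miR841 rose, and miR856 was too rare to judge.

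miR775 was the fifth highest member. It ran from 769 over a median of 1018 to 1768 in ABA libraries and from 1148 over a median of 1449 to 2743 in mock libraries. The ABA mean was lower at 6 of 7 times, with the exception of 6 h, and the log2 difference was -0.48 (SE 0.12, limma adjusted p = 0.00335), a 1.40-fold lower level. It was not called at any single time in this fit, while the authors' deposited table gives adjusted p = 0.0158 at 0.5 h and 0.0159 at 12 h.

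The 2 miR781 loci overlap on opposite strands of chromosome 1, within an intron of AT1G21200, and carry 1 mature sequence. A read that lies within that sequence matches both loci. Their group means were not equal but stayed within 1.09-fold of each other, and their values are not independent. miR781a ran from 280 over a median of 452 to 724 in ABA libraries and from 392.9 over a median of 588 to 897 in mock libraries, a log2 difference of -0.40 (SE 0.10, limma adjusted p = 0.00175). miR781b differed by -0.40 (SE 0.09, adjusted p = 0.00169), with 284, 472 and 727 in ABA libraries and 395, 616 and 902 in mock libraries. The ABA mean was lower at 7 of 7 times for both. At 1 h miR781a had 396 and 323 in ABA libraries and 555 and 792 in mock libraries, a difference of -0.89 (SE 0.25, adjusted p = 0.0266), while at 12 h it was -0.04 (SE 0.25, adjusted p = 0.976).

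Both arms of miR840, whose hairpin lies in an exon of AT2G02750 on its strand, fell. miR840-3p had 153, 220 and 262 as lowest, median and highest value in ABA libraries and 200, 279 and 318.8 in mock libraries, with a difference of -0.35 (SE 0.07, limma adjusted p = 0.000412). Both ABA libraries were below both mock libraries at 6 of 7 times. miR840-5p had 199, 275 and 406 in ABA libraries and 217, 321 and 492 in mock libraries, a difference of -0.24 (SE 0.08, adjusted p = 0.0227) that was -0.20 and no longer called without the deeper ABA 1 h library. The 2 arms did not pass the test of a difference between them (5p minus 3p 0.11, SE 0.10, adjusted p = 0.51).

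The miR844 arms went apart. miR844-5p, the stronger arm, was 5.85 times as high as the 3p arm and had nearly the same level in both treatments, with 696, 935 and 1460 as lowest, median and highest value in ABA libraries and 644, 934 and 1446 in mock libraries (log2 difference 0.01, SE 0.08, limma adjusted p = 0.955). miR844-3p fell, with 46.5, 127 and 185 in ABA libraries and 141, 205 and 283 in mock libraries. Its difference was -0.69 (SE 0.14, adjusted p = 0.000334), and both ABA libraries were below both mock libraries at 6 of 7 times. The hairpin lies in an intron of AT2G23348, on its strand.

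The miR841 3p arms rose. miR841a-3p ran from 190 over a median of 337 to 424 in ABA libraries and from 141 over a median of 276 to 405 in mock libraries (log2 difference 0.31, SE 0.10, limma adjusted p = 0.0163), and miR841b-3p from 186 over 333 to 420 in ABA libraries and from 144 over 273 to 403.4 in mock libraries (0.31, SE 0.10, adjusted p = 0.0155). Their group means stayed within 1.03-fold of each other; the counting of reads that match only the shared 19 bases was not examined here. The 5p arms averaged 56.2 for miR841a-5p and 33.6 for miR841b-5p and were not called over the 7 times, at -0.25 (SE 0.17) and -0.13 (SE 0.17). miR841b-5p was lower at 24 h, with 26.0 and 10.2 in ABA libraries and 51.6 and 51.3 in mock libraries (-1.59, SE 0.46, adjusted p = 0.0158), a call lost without the shallower ABA library or either mock library of that time (-2.23 to -0.96 over all fits). miR841a lies opposite HTA4, an H2A gene. miR856 was listed at 0 in 12 of 14 groups and had 1 library above 0 in each treatment.

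The remaining members have targets that are less well described, and are given by what they did. miR866 and miR861 rose most. miR866-3p ran from 114 over a median of 343 to 617 in ABA libraries and from 122 over a median of 201 to 308 in mock libraries. Both ABA libraries lay above both mock libraries at 5 of 7 times, from 3 h on. At 9 h the ABA libraries had 617 and 487, against 166 and 255 in mock libraries, and at 12 h they had 574 and 550, against 223 and 234. At 0.5 h the groups overlapped, with 198 and 114 in ABA libraries and 201 and 142 in mock libraries. The log2 difference over the 7 times was 0.71 (SE 0.12, limma adjusted p = 7.52e-05), and it was 1.41 (SE 0.32, adjusted p = 0.0048) at 9 h.

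miR866-5p, the weaker arm, moved with it. It ran from 64.5 over a median of 121 to 335 in ABA libraries and from 40.4 over a median of 79.5 to 136 in mock libraries. Its difference was 0.74 (SE 0.13, limma adjusted p = 8.06e-05), and the arms' effects differed by 0.03 (SE 0.14, adjusted p = 0.928). The difference reached 1.27 (SE 0.34, adjusted p = 0.0151) at 9 h, where the ABA libraries had 335 and 202 and the mock libraries 84.6 and 136. The hairpin lies on the minus strand of chromosome 5, with miR866-5p at chr5:16157911-16157931 and miR866-3p at chr5:16157838-16157857. No other gene is annotated over either arm.

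miR861-3p rose over the 7 times and was called singly at 12 and 24 h. It ran from 235 over a median of 343 to 614 in ABA libraries and from 120 over a median of 184 to 362 in mock libraries. Both ABA libraries were above both mock libraries at 6 of 7 times, all but 0.5 h. The log2 difference was 0.75 (SE 0.09, limma adjusted p = 1.31e-06), a 1.68-fold higher level, and at 12 h it was 1.21 (SE 0.25, adjusted p = 0.00194), with 309 and 284 in ABA libraries and 136 and 120 in mock libraries. The 5p arm was rare, at 17.2 on average, and its ABA mean was lower at 6 of 7 times (-0.40, SE 0.23, adjusted p = 0.174, not called). The hairpin lies on chromosome 3, miR861-3p at chr3:17838154-17838174 on the minus strand, with no other gene annotated over it.

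**Figure D3:**
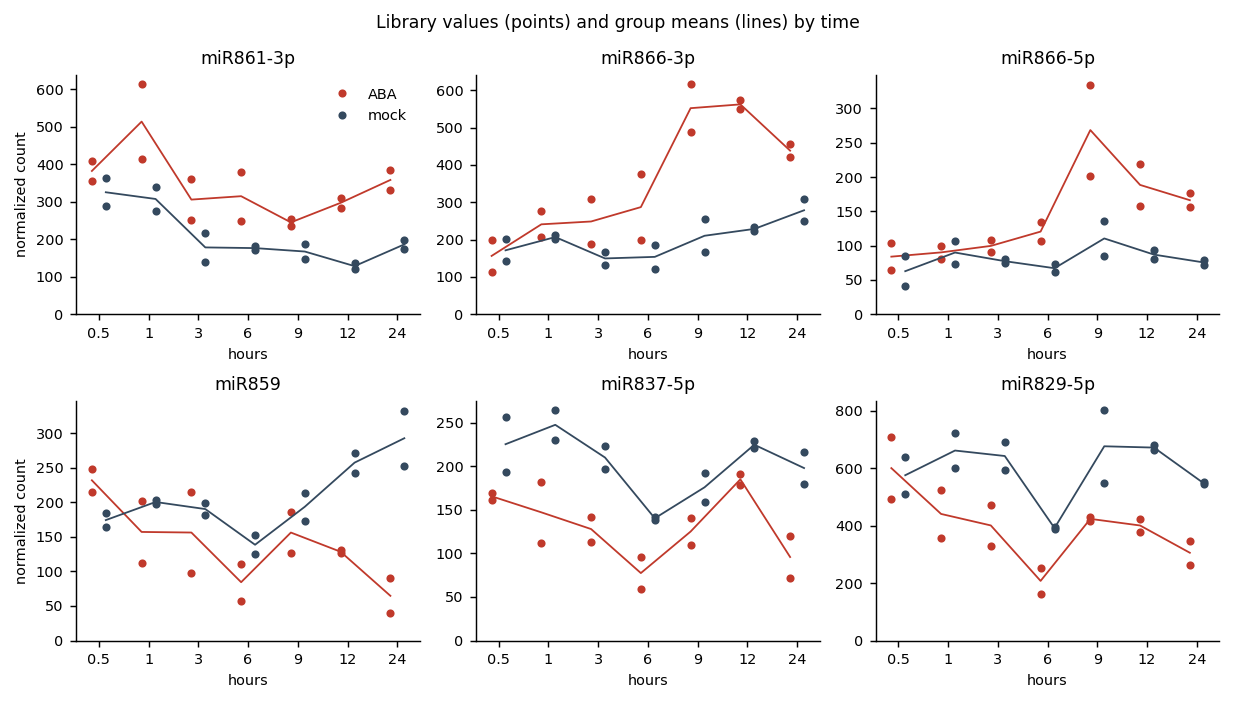
Library values and group means by time for 6 members. Points are the 2 recovered libraries of each group and lines the authors' group means, in normalized counts against hours of treatment, with ABA points drawn left of mock points. Counts were scaled within each time. miR866-3p separates from 3 h on, miR859 has 90.1 and 39.3 in ABA libraries at 24 h, and miR837-5p lies lower in ABA libraries at each time.

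miR837 fell on both arms. miR837-5p ran from 58.8 over a median of 130 to 191 in ABA libraries and from 138 over a median of 207 to 265 in mock libraries, and it was the one tested member whose ABA libraries were both below both mock libraries at 7 of 7 times. Its log2 difference was -0.67 (SE 0.10, limma adjusted p = 2.39e-05) over the 7 times and -1.08 (SE 0.27, adjusted p = 0.00834) at 24 h. miR837-3p ran from 70.2 over a median of 82.7 to 97.2 in ABA libraries and from 69.0 over a median of 113 to 170 in mock libraries (-0.40, SE 0.11, adjusted p = 0.00436). In the counts as scaled by the authors, its ABA values hardly moved with time, while the mock values were higher at 0.5 and 1 h. That scaling was done within each time, so a change of level between times cannot be read from these values. The hairpin lies in an intron of NRT1.9, a nitrate transporter gene, on its strand, miR837-5p at chr1:6520995-6521015.

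miR829-5p, miR850, miR852, miR849 and miR830-5p fell as well. miR829-5p had 163, 397 and 707 as lowest, median and highest value in ABA libraries and 387, 597 and 802 in mock libraries, with a difference of -0.64 (SE 0.09, limma adjusted p = 1.26e-05), and both ABA libraries were below both mock libraries at 6 of 7 times, all but 0.5 h. miR850, in an intron of the noncoding gene AT4G13495, had 61.2, 95.03 and 158 in ABA libraries and 90.0, 130 and 215 in mock libraries (-0.58, SE 0.09, adjusted p = 3.39e-05). It was called at 6, 9 and 24 h, at 6 h with 61.2 and 64.2 in ABA libraries and 129 and 121 in mock libraries. miR852, in an intron of AT4G14500, had 190, 304 and 490 in ABA libraries and 284, 415 and 716 in mock libraries (-0.39, SE 0.09, adjusted p = 0.00189).

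miR849 had 34.9, 56.4 and 89.1 in ABA libraries and 47.2, 73.1 and 121 in mock libraries (-0.39, SE 0.11, limma adjusted p = 0.00622). miR830-5p fell by 0.32 on the log2 scale (SE 0.07, adjusted p = 0.000849), with ABA libraries both lower at 6 of 7 times, all but 1 h, and 173.3 and 251.7 in ABA libraries against 357 and 286 in mock libraries at 9 h. miR830-3p averaged 24.6 and had a difference of -0.45 (SE 0.20, adjusted p = 0.0617), which was not called.

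The other called members differed little. miR829-3p, the third highest member, ran from 1530 over a median of 1901 to 3379 in ABA libraries and from 1201 over a median of 1790 to 2194 in mock libraries (0.21, SE 0.08, limma adjusted p = 0.0459). At 1 h it had 2563 and 3379 in ABA libraries and 1802 and 1662 in mock libraries, a difference of 0.77 (SE 0.22, adjusted p = 0.0266). miR862-5p ran from 220 over a median of 302 to 459 in ABA libraries and from 200 over a median of 247 to 310 in mock libraries (0.24, SE 0.09, adjusted p = 0.0284), with the ABA mean higher at 7 of 7 times. It lies in an intron of PKL, a chromatin remodeller gene, with miR862-3p, which averaged 20.2 and was not called (0.28, SE 0.14, adjusted p = 0.111).

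miR777, the fourth highest member, ran from 979 over a median of 1401 to 1880 in ABA libraries and from 1112 over a median of 1520 to 2928 in mock libraries (-0.23, SE 0.09, limma adjusted p = 0.0344). miR779 averaged 573 and differed by -0.20 (SE 0.07, adjusted p = 0.0343). At 3 h miR779 had 503 and 412 in ABA libraries and 690 and 808 in mock libraries (-0.71, SE 0.20, adjusted p = 0.0376). The 4 calls over the 7 times for miR777, miR779, miR829-3p and miR862-5p were each lost in 11 to 18 of the 28 fits with 1 library left out, with no change of direction.

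The members above 100 normalized counts that were not called over the 7 times were miR844-5p, miR848, miR845a, miR865-5p, miR843 and miR833a-5p, besides miR822. miR848 averaged 771 (log2 difference -0.13, SE 0.11), miR865-5p 243 (-0.09, SE 0.06), and miR833a-5p 196 (-0.0015, SE 0.12). miR843 averaged 211 and was just outside the threshold, at 0.30 (SE 0.12, limma adjusted p = 0.054). Between 10 and 100 normalized counts, miR853 averaged 65.8, miR835-5p 55.9, miR870-5p 40.7, miR835-3p 22.8 and miR865-3p 18.7, none of them called. miR835-3p shares its seed with the conserved miR164 and miR865-3p with miR472-3p.

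Below 10 normalized counts, miR836 averaged 9.92, miR870-3p 9.79, miR780 6.93, miR776 5.23, miR771 4.53, miR831-3p 4.17, miR834 3.42 and miR851-5p 3.42. miR833a-3p averaged 2.37, miR831-5p 1.58, miR851-3p 1.06, miR832-3p 0.782, miR832-5p 0.223 and miR867 0.149. None of these 14 was called over the 7 times. miR833b and miR782 were too rare to test, with an average of 0.0693 and 0.0488: miR833b was listed above 0 in 2 groups and miR782 in 1, all of them ABA groups, with 2 reads and 1 read in all, and no read was recovered for either in the 14 mock libraries. MIR771 and MIR851 are neighbours on chromosome 3, and miR833b is antisense to miR833a.

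Time by time, few members passed the test. At 0.5 h 0 rose and 1 fell of 66, beside 5.87% raised and 1.68% lowered of all 358 tested miRNAs, and at 1 h 1 rose and 2 fell, beside 6.7% and 2.51%. At 3 h 0 rose and 1 fell, beside 4.19% raised and 2.51% lowered, and at 6 h 0 rose and 3 fell, beside 3.35% and 4.47%. At 9 h 6 rose and 2 fell, beside 6.7% raised and 6.15% lowered, and at 12 h 3 rose and 0 fell, beside 6.7% and 3.91%. A fit of the 4 libraries of 12 h alone called 4 raised and 7 lowered of 61 members, beside 13.8% raised and 14.7% lowered of 340 miRNAs. At 24 h 2 rose and 6 fell, beside 10.3% raised and 11.2% lowered. Those that rose at 9 h were both arms of miR866 and 4 of the miR854 loci, and miR850 and miR830-5p fell. At 12 h miR861-3p and both arms of miR866 rose, and at 24 h miR861-3p and miR866-5p rose while miR859, miR771, miR841b-5p, miR837-5p, miR850 and miR829-5p fell. The 24 h call of miR771 rested on 1 read in the ABA libraries and 13 in the mock libraries, a ratio of 0.0958 with an exact 95% counting interval of 0.00226 to 0.638.

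**Figure D4:**
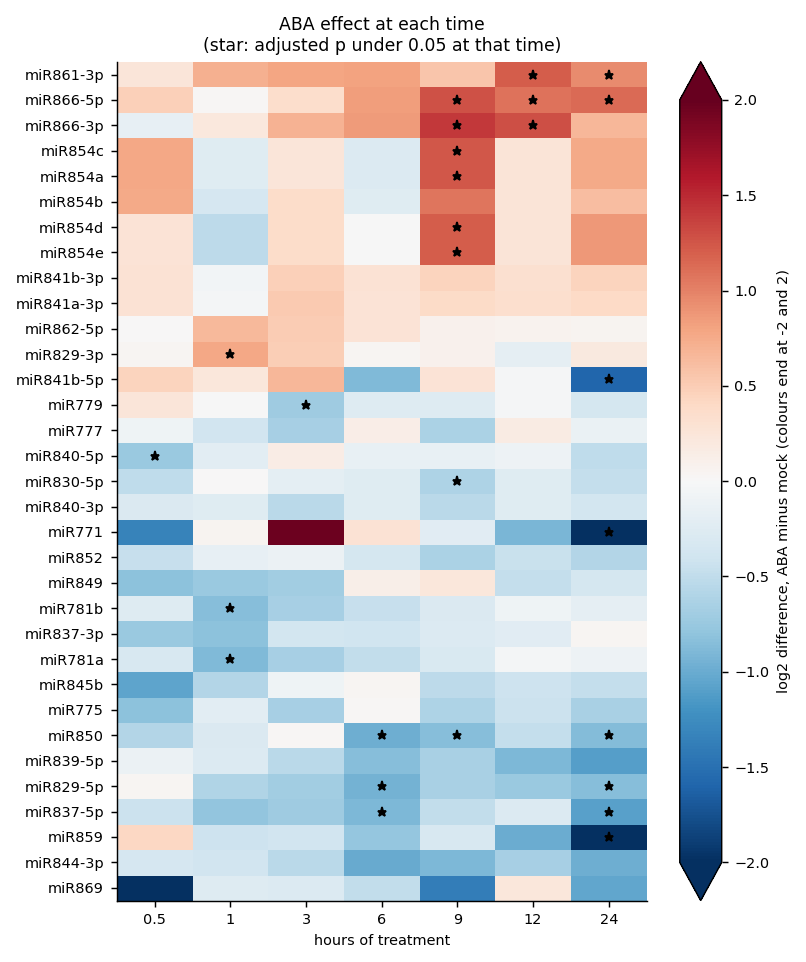
ABA effect at each of the 7 times for the 33 members called over the 7 times or at a single time. Colour is the log2 difference, ABA minus mock, with colours ending at -2 and 2, and a star marks an adjusted p under 0.05 at that time; the stars of miR866 and miR854 lie at 9 h and later, and 6 members have a star for a lower ABA level at 24 h.

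Calls at 1 time rest mainly on its 4 libraries. At 1 h no call was left without the shallower ABA or the shallower mock library. At 6 h none was left without either mock library, 1 without the shallower ABA library and 6 without the deeper one. At 9 h the 8 calls became 0 without the deeper ABA library and 2 without the deeper mock library. At 12 h 1 call, that of miR861-3p, was left without any 1 of the 4, and at 24 h 2 were left without the shallower ABA or either mock library. miR861-3p at 12 h and miR859 at 24 h were called in all 28 fits with 1 library left out.

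The single calls at 0.5 and 3 h were miR840-5p and miR779. miR840-5p had 199 and 219 in ABA libraries and 398.6 and 309.3 in mock libraries at 0.5 h (-0.75, SE 0.22, limma adjusted p = 0.0418). No call was left at 0.5 h without any 1 of its own 4 libraries, and at 3 h leaving out either shallower library gave 0 calls, the deeper ABA library 3 and the deeper mock library 6. At 1 h the calls were miR829-3p upward and both miR781 loci downward. With each library centred on its median, a scaling under which the median of all miRNAs at 1 h was 0.12 in place of -0.02, the calls at 1 h were 3 raised and none lowered, at 0.5 h there was none, and at 3 h there were 1 raised and 1 lowered. At 6 h miR829-5p, miR837-5p and miR850 fell, miR829-5p with 252 and 163 in ABA libraries and 396 and 387 in mock libraries.

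The authors' deposited table, which tests each time alone, calls 3 members at 0.5 h, 0 at 1, 3 and 6 h, 1 at 9 h, 7 at 12 h and 7 at 24 h at the same threshold. The background in that table is 11.2% at 0.5 h, 4.65% at 1 h, 0.246% at 3 h, 3.87% at 6 h, 5.39% at 9 h, 24% at 12 h and 15.3% at 24 h. Both sources call miR840-5p at 0.5 h, miR866-3p at 9 h, miR861-3p and both miR866 arms at 12 h, and miR829-5p, miR837-5p, miR859, miR861-3p and miR866-5p at 24 h. At 12 h the authors' deposited table also has miR859 at adjusted p = 5.83e-05, miR839-5p at 7e-05 and miR829-5p at 7.16e-05, all lower under ABA.

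The ABA effect at 6 to 24 h was set against that at 0.5 to 3 h. The difference passed the test for 3 of 66 members, beside 5.87% raised and 10.1% lowered of all 358. miR859 went lower, with a mean effect of -1.09 late and -0.13 early (difference -0.96, SE 0.29, limma adjusted p = 0.0279). miR866-3p went higher, at 1.06 late and 0.25 early (0.81, SE 0.24, adjusted p = 0.0279), as did miR866-5p, at 1.08 late and 0.28 early (0.80, SE 0.26, adjusted p = 0.0377). Each of the 3 lost the call in 7 to 15 of the 28 fits with 1 library left out, and with median centring the calls were 0 raised and 5 lowered. A test of any change of the effect over the 7 times called none of the members with limma (background 6.42%); 8 had an unadjusted p under 0.05, miR859 came nearest with adjusted p = 0.0502, and with voom weights 1 member was called.

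Of 19 hairpins with both arms among the members, 18 could be tested for a difference between the arms in their ABA effect, and 4 passed, beside 14.1% with a higher and 18.8% with a lower 5p effect among all 64 hairpins tested. In miR861 the 5p effect was lower than the 3p effect by 1.15 (SE 0.21, limma adjusted p = 0.000417). In miR829 it was lower by 0.84 (SE 0.15, adjusted p = 0.000439), since the 5p arm fell while the 3.82 times higher 3p arm rose slightly. In miR844 the 5p effect was higher by 0.70 (SE 0.17, adjusted p = 0.00368). In miR841a it was lower by 0.56 (SE 0.19, adjusted p = 0.0352), a call lost in 15 of 28 fits with 1 library left out, and in miR841b by 0.44 (SE 0.18, adjusted p = 0.0691). In all 4 called hairpins the arm with the lower level had the lower ABA effect, which was so in 13 of the 18 member hairpins and in 40 of the 64 tested.

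**Figure D5:**
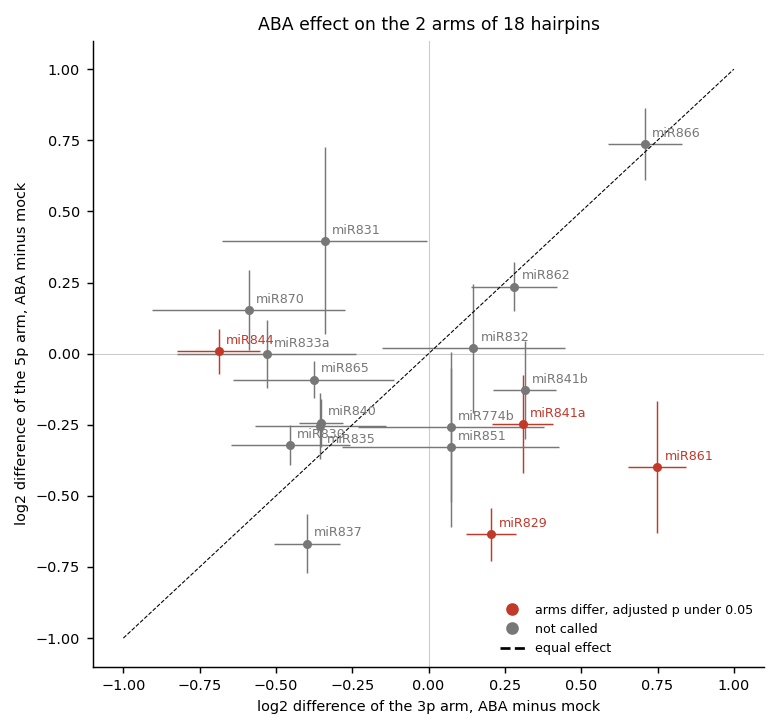
ABA effect on the 2 arms of 18 hairpins. Each point gives the log2 difference, ABA minus mock, of the 3p arm on the x axis and of the 5p arm on the y axis with standard errors, and the dashed line marks equal effects; miR861, miR829 and miR841a lie below the line and miR844 above it, while miR866 lies on it at 0.71 and 0.74.

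RNA of the genes in which some hairpins lie is not in the table, so whether it moved with these members was not tested. Positions are from RefSeq's TAIR10.1, joined by name only.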

How the data were processed

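The authors deposited 1 table of mean normalized counts, a signal per miRNA and group scaled within each time, together with adjusted p-values per time from their own comparison. Per the submitters' processing notes, FastQC, STAR and the genome build TAIR10 were used; read trimming, small RNA size selection and how reads matching several loci were counted is not given in the sources used here.

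Each mean was split into 2 whole counts divided by 2 size factors (0.687 to 1.36), since values carry 10 significant digits; on simulated tables no split was wrong. The 2 libraries of a group are told apart only as deeper and shallower, where the deeper one has the larger size factor. For ABA at 9 h the deeper library had fewer recovered reads than the shallower one, 260728 against 271608. Values of at least 1 in at least 2 libraries were required, log2(value + 1) was fitted with limma 3.58.1 (R 4.3.3, trended spread, 14 residual degrees of freedom), and p-values were adjusted over all tested miRNAs. A mean over 7 times, each time, late minus early, the interaction and 5p minus 3p were tested. The fit was checked on simulated data. miR822-5p and miR822-3p (means not split in every group) and miR782 and miR833b (too low) were left out of this fit. The chi-square per degree of freedom between the 2 libraries of a group was 8.03 to 147, over miRNAs with at least 10 reads. Recovered reads are not independent molecules, so the counting interval covers counting error only.

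Named members were those called over the 7 times (at most 12 each way with full library values), the 6 with the highest levels, at most 2 each way per time and at most 5 for the other tests; the rest are given by level. The members and the lists they are compared with were chosen with earlier results of these data known. RefSeq TAIR10.1 gave sequences and positions for 413 of 421 names.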

Additional observations from a re-analysis of the deposited data

Results flagged for a closer look

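The ABA effect of 3 members differed between the late times, 6 to 24 h, and the early times, 0.5 to 3 h, by a test of that difference. miR859 had a late effect lower by 0.96 on the log2 scale (late minus early -0.9599, limma adjusted p = 0.0279), and its ABA mean was above mock at 0.5 h and below it at the other 6 times. miR866-3p had a late effect higher by 0.8102 (adjusted p = 0.0279) and miR866-5p, the other arm of its hairpin, by 0.7982 (adjusted p = 0.0377). The 2 arms come from 1 precursor and are not independent. The calls of both arms were lost with median centring and with the deposited means, and that of miR859 with the deposited means.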

How the results depend on the processing

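No called value of a named member changed sign under the alternatives run: pseudocounts of 0.1 and 5, no filter or one at 5, median centring, size factors over all 28 libraries, voom weights, robust spread, 1 miRNA per sequence, the deposited means alone, the 4 libraries of a time alone, the authors' deposited adjusted p, and leaving out each of the 28 libraries. No paired analysis was possible because the recovered libraries carry no replicate number. The use of 1 miRNA per sequence for single times, late against early, the interaction and the arms was chosen after seeing the data.

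Over the 7 times the 12 raised members became 7 with 1 miRNA per sequence and 3 with the deposited means, and the 19 lowered became 12 with the deposited means; leaving out 1 library gave 7 to 13 raised and 15 to 21 lowered. All 31 calls kept their direction, and 21 stood in all 28 leave-out fits and in all other alternatives except the deposited means; 15 stood in every alternative other than leaving out a library.

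For single times, the 1 call at 0.5 h became 2 with a pseudocount of 5 or voom weights, 0 with median centring or joint size factors, 5 with that time's 4 libraries alone and 3 by the authors' deposited adjusted p (0 to 2 with 1 library left out). The 3 calls at 1 h, 1 raised and 2 lowered, became 3 raised and 0 lowered with median centring and 0 by the authors' deposited adjusted p (0 to 4). The 1 call at 3 h became 2 with a pseudocount of 0.1 or median centring and 0 with the 4 libraries alone or by the authors' deposited adjusted p (0 to 6). The 3 calls at 6 h became 0 in those last 2 alternatives (0 to 6), with 1 raised and 3 lowered under joint size factors. The 8 calls at 9 h became 5 with 1 miRNA per sequence and 1 by the authors' deposited adjusted p (0 to 10). The 3 calls at 12 h became 11 with the 4 libraries alone and 7 by the authors' deposited adjusted p (1 to 4). The 8 calls at 24 h ranged from 2 to 11 with 1 library left out, and miR771 at 24 h from -4.23 to -0.99 with the pseudocount.

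The 3 calls for late against early, 2 higher and 1 lower, were 0 higher and 5 lower with median centring, and became 5 with a filter at 5, median centring, voom weights or robust spread and 0 with the deposited means (0 to 7 with 1 library left out). The interaction, with no call, had 1 under a filter at 5, median centring, joint size factors, voom weights, robust spread or 1 miRNA per sequence (0 to 2). The 4 arm differences ranged from 3 to 7 with 1 library left out. Fewer miRNAs were counted with 1 per sequence, and fewer values entered the deposited means and the fits of 4 libraries. The cause of these shifts was not tested. Of the 21 members below 10 normalized counts, 19 were tested and 1 was called; the part of depth in this was not tested.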
